A study of Glycine max with 12 samples.

Results

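Glyma.10G026000.1 and Glyma.14G032400.1 are the soybean (Glycine max) gene models whose closest Arabidopsis genes are TRANSPARENT TESTA8 (TT8) and TRANSPARENT TESTA12 (TT12), a regulator and a transporter of seed coat pigment. They were chosen by these names, with earlier results of these data known, and are 2 of the 56044 models in the deposited expression table. By their identifiers they lie on chromosomes 10 and 14 of the Williams 82 assembly version Wm82.a2. Of 5 models matched to TT8 and 1 matched to TT12, the 4 that were not chosen are described beside them. The chosen TT8 match is the highest of the 5 in the Williams 25–50 mg seed coat, at 51.2 RPKM with the next at 42.9 RPKM.

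The brown and black colors of seeds come from flavonoids that are made in the seed coat and stored in the vacuoles of its cells. In Arabidopsis, TT8 is a basic helix-loop-helix (bHLH) transcription factor that works in a complex with the MYB protein TT2 and the WD40 repeat protein TTG1. The complex turns on the late enzymes of the pathway, such as dihydroflavonol reductase (DFR), leucoanthocyanidin dioxygenase (LDOX) and the anthocyanidin reductase BANYULS (BAN). TT12 is a transporter of the MATE family in the vacuole membrane, which carries flavonoid precursors of the tannins into the vacuole, and the proton pump AHA10 is needed for this transport. Arabidopsis mutants in either gene have pale seeds.

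Total RNA from greenhouse-grown plants was sequenced as 12 libraries, 1 for each condition and none replicated. From Williams, a cultivar with the ii allele of the I locus and a yellow seed coat with a black hilum, there were 11 libraries. They represent seed coats of 5–6 mg, 25–50 mg, desiccating 200–300 mg and mature dry seed, cotyledons of 5–6 mg, desiccating 200–300 mg (without the axis) and mature dry seed, embryo axes of desiccating 200–300 mg and 300–400 mg seed, roots of 5-day seedlings, and furled leaves of adult plants. The remaining library is the 25–50 mg seed coat of W55, a black-seeded line (allele i) that arose spontaneously in Williams 79. W55 has lost much of the chalcone synthase (CHS) gene cluster of the I locus on chromosome 8. The paper reports that the deletion also took non-CHS genes of this region, among them a myb factor. Most of these non-CHS genes were expressed in the yellow seed coat. Williams 79 is an isoline made by backcrossing disease resistance genes into Williams. Values are RPKM (reads per kilobase of a model, scaled to the mapped reads of the library), which correct for model length and can be compared between genes. RPKM values were turned back into whole numbers of aligned reads (hits), with 14.7 M to 187 M alignments per library. Each value is followed by its hits, or by the exact Poisson 95% interval of its hits. All intervals cover counting error only, and no difference between 2 libraries has a replicate check.

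Marker lists matched the labels of leaf and of drying seed. Light harvesting and Rubisco small subunit models held 7.82% of summed RPKM in the leaf and at most 0.418% elsewhere, and dehydrin and late embryogenesis abundant models held 3.57% to 6.61% in the 6 libraries of desiccating or dry seed and at most 0.279% in the others. Models of 12S globulins, storage proteins of the cotyledon, held 0.379% and 0.331% in the cotyledons of 200–300 mg and dry seed and at most 0.00974% in the others, the young cotyledon included, and no marker list of the seed coat was set. A group of 508 chromosome 13 models with no annotation took a very unequal share of the libraries, namely 75.7% of summed RPKM in the seed coat of 5–6 mg and 47.6% in that of dry seed, 54.0% for the cotyledon of 5–6 mg, and 2.73% to 20.6% for the other 9. That share lowers the RPKM of all other models in a library, and for the steps it touches most, values without these models are given with the results.

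The TT8 match was a seed coat transcript with its highest levels at 25–50 mg. Its level in the Williams seed coat was 8.74 RPKM at 5–6 mg (8.48 to 9.01), 51.2 RPKM at 25–50 mg (49.4 to 53.1), 3.47 RPKM at 200–300 mg (3.27 to 3.69) and 0.0341 RPKM in the dry seed (11 hits). In the W55 seed coat of 25–50 mg it stood at 42.4 RPKM (40.8 to 44.0). The pair of 25–50 mg seed coats thus held the high values, with 48.0% of the sum over the 12 libraries in Williams and 39.7% in W55.

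Outside the seed coat the TT8 match never reached 1 RPKM. The cotyledons gave 0.132 RPKM at 5–6 mg (68 hits), 0 hits at 200–300 mg, where 3 hits would be 0.0275 RPKM, and 0.0312 RPKM in dry seed (10 hits). The embryo axes gave 0.123 RPKM at 200–300 mg (34 hits) and 0.0714 RPKM at 300–400 mg (19 hits), the root 0.112 RPKM (59 hits) and the leaf 0.361 RPKM (15 hits, 0.202 to 0.596). In the order of the 12 levels, each of the first 5 libraries (the 25–50 mg coats of Williams and then W55, the 5–6 mg coat, the 200–300 mg coat and the leaf) differed from the next beyond counting error. From the 5–6 mg cotyledon downwards no library differed from its next lower neighbor beyond counting error, so the dry seed coat could not be told from the dry cotyledon, with a ratio of 1.09 (0.422 to 2.87).

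The TT12 match was also a transcript of young seed coats, with a sharper edge than the TT8 match. Its level in the Williams seed coat was 52.0 RPKM at 5–6 mg (51.2 to 52.9), 94.7 RPKM at 25–50 mg (91.6 to 98.0), no hit at 200–300 mg and 0.0195 RPKM in the dry seed (4 hits). The W55 seed coat stood at 95.5 RPKM (92.6 to 98.5). The 3 young seed coats were therefore high and every other library was close to or at 0. The only other libraries with hits were the root with 0.0595 RPKM (20 hits) and the 5–6 mg cotyledon with 0.0456 RPKM (15 hits), which did not differ from each other beyond counting error (ratio 1.30, 0.634 to 2.74). No hit was found in the 200–300 mg or dry cotyledon, in either embryo axis or in the leaf, where 3 hits would be 0.0431, 0.0147, 0.0171, 0.0177 and 0.114 RPKM. The leaf library was the shallowest, so its limit is the widest.

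**Figure D1:**
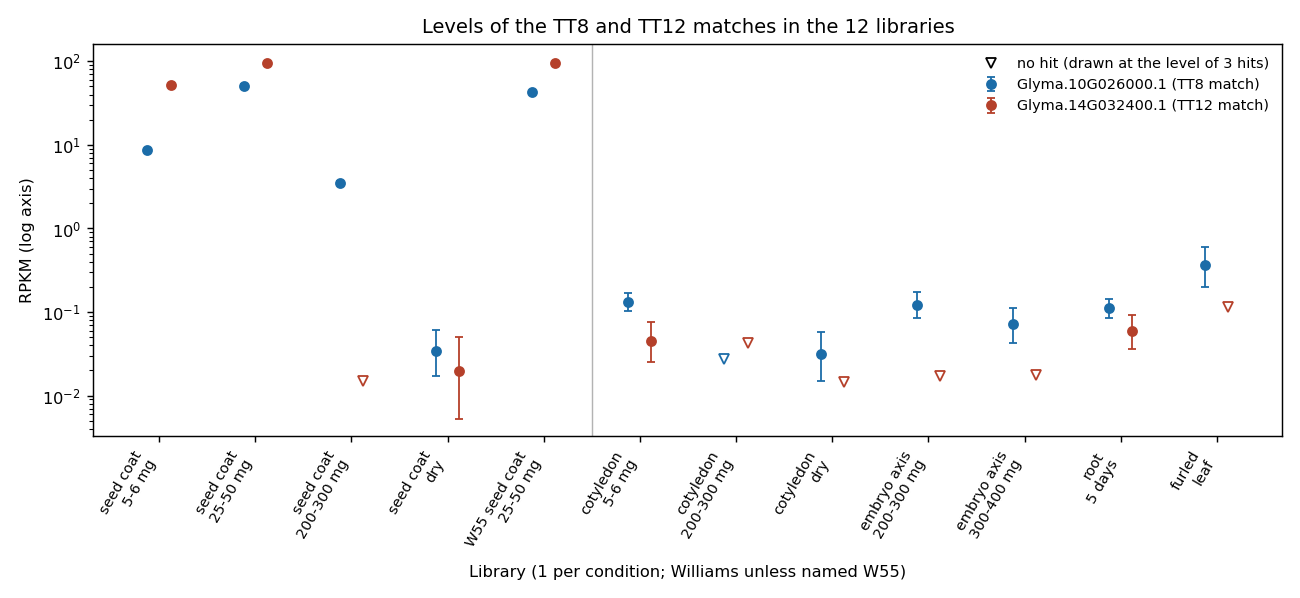
Level in RPKM (log axis) of the TT8 match and the TT12 match in each of the 12 libraries, with exact Poisson 95% intervals of the hits. Open triangles mark libraries with no hit, drawn at the level of 3 hits. The seed coats of 5–6 mg and 25–50 mg (Williams and W55) lie at 8.74 RPKM or more for both models, whereas every library of another organ lies at 0.361 RPKM or less.

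A highest value in the 25–50 mg seed coat was common in this set of libraries. It was found for 21.0% of the 41060 models with at least 1 RPKM anywhere, counting either of the 25–50 mg seed coats. Far fewer were that specific. Both members stood at least 16-fold above all 7 libraries of other organs in both 25–50 mg coats, as did 358 models in all (0.872%), a limit that was set after the values had been seen. These are bulk tissues, so fewer cells of a type and less RNA per cell cannot be told apart.

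Within their protein families, both members ranked high in the young seed coat. Among 308 models with a bHLH domain (PF00010), the TT8 match ranked 9 in the 5–6 mg coat, 1 in the Williams 25–50 mg coat and 5 in the W55 coat, then 49 at 200–300 mg, and lower still in the dry coat. Among 119 models with a MATE domain (PF01554), the TT12 match ranked 1 in the 5–6 mg coat and in both 25–50 mg coats. It made up 38.1% of the family's summed RPKM at 5–6 mg, 21.2% in Williams at 25–50 mg and 20.0% in W55. The next MATE model in these 3 libraries was Glyma.17G247400.1 (named for this rank), at 64.6 RPKM in the Williams 25–50 mg coat and 66.5 RPKM in W55.

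A second TT8 match, Glyma.02G147800.1, had nearly the same profile as the first in young coats and a lower level later. It measured 7.30 RPKM at 5–6 mg (7.06 to 7.55), 42.9 RPKM at 25–50 mg (41.2 to 44.7), 1.01 RPKM at 200–300 mg (0.904 to 1.13) and 1 hit in the dry Williams coat, with 35.7 RPKM in W55 (34.3 to 37.2). All 7 libraries of other organs were at 0.0831 RPKM or less. The ratio of this model to Glyma.10G026000.1 within a library was 0.835 at 5–6 mg (0.798 to 0.874), 0.838 at 25–50 mg (0.792 to 0.885) and 0.843 in W55 (0.798 to 0.891). In the 200–300 mg coat it was 0.292 (0.256 to 0.331), so the chromosome 10 model was 3.43-fold (3.02 to 3.90) above the chromosome 2 model there. A ratio within a library does not depend on how libraries are scaled. A read could be counted at every model it aligned to, so reads that align to both TT8 matches count at both, and the share of such reads was not tested.

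**Figure D2:**
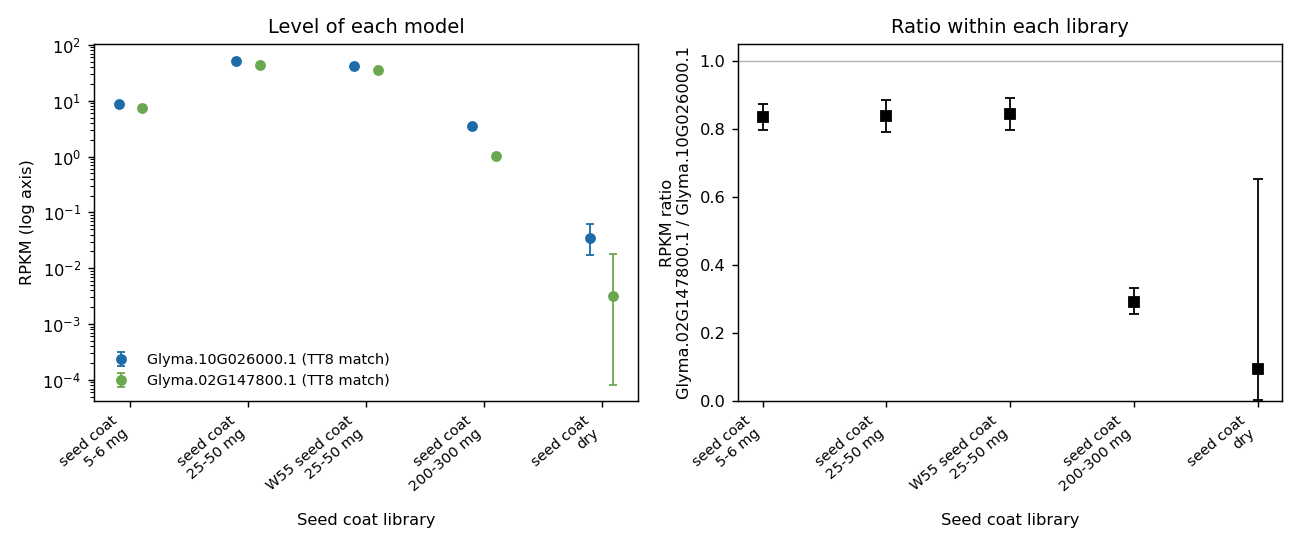
Left, RPKM (log axis) of the chromosome 10 and chromosome 2 TT8 matches in the 5 seed coat libraries, with exact Poisson 95% intervals. Right, the RPKM ratio of the chromosome 2 to the chromosome 10 model, with Clopper-Pearson 95% intervals from hits: 0.835 to 0.843 in the 3 young coats, 0.292 in the 200–300 mg coat and a wide interval in the dry coat, where the chromosome 2 model had 1 hit.

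The other 3 models matched to TT8 were barely detected. Glyma.03G152800.1 was highest in the leaf at 0.214 RPKM (7 hits) and had no hit in the Williams 25–50 mg coat. Glyma.19G155300.1 was highest in the root at 0.101 RPKM (44 hits), and the short model Glyma.17G198900.1 never had more than 3 hits. In root and leaf these 3 models and Glyma.10G026000.1 were all at 0.361 RPKM or less, and only the chromosome 10 and chromosome 2 models were abundant in a seed coat.

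W55 and Williams seed coats of 25–50 mg seed differ in the I locus, with its lost CHS and non-CHS genes, and in seed color. They may also differ in the regions that came with the resistance genes of Williams 79. The comparison asks whether pigment regulation or transport differed between these coats at the RNA level. The TT12 match did not differ between them beyond counting error, with 95.5 RPKM in W55 against 94.7 RPKM in Williams and a ratio of 1.01 (0.963 to 1.06). The TT8 match was slightly lower in the black seed coat, 42.4 against 51.2 RPKM, or 1.21-fold lower (1.15 to 1.27). Glyma.02G147800.1 was lower by a like amount, 1.20-fold (1.13 to 1.27). On the log2(RPKM + 0.1) scale the difference was −0.27 for the TT8 match and 0.01 for the TT12 match, beside a median of 0.03 over all models. With TPM, median ratio or chromosome 13 scaling the TT12 value was −0.08, −0.07 or −0.13, so its sign turned with the scaling, and the TT8 value was −0.37, −0.35 or −0.42. Neither member reached 4-fold, a limit that 0.227% of 31256 models passed upwards and 0.461% downwards, while 2.83% were at least 2-fold higher and 3.34% at least 2-fold lower. Core histone models held 1.93% of summed RPKM in W55 and 1.07% in Williams, and the part of this difference between the samples in the TT8 value was not tested.

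The partners of TT8 were present in both coats. Of 2 TT2 matches, Glyma.17G050500.1 stood at 39.8 RPKM in W55 and 39.4 RPKM in Williams (ratio 1.01, 0.926 to 1.10) and is the one meant below. The other, Glyma.15G176000.1, was highest in the leaf at 5.98 RPKM and had 0.0528 RPKM in the Williams coat and no hit in W55. The TTG1 match Glyma.06G136900.1 was 21.6 against 14.8 RPKM (1.46, 1.31 to 1.63), and a further TTG1 match, Glyma.04G228000.1, was 6.63 against 5.04 RPKM (1.31, 1.12 to 1.55). Both TTG1 matches were thus higher in W55 and both abundant TT8 matches lower, by less than 2-fold in each case. These partner models, and the BAN, DFR, AHA10 and MYB5 matches below, were named for their role after their values had been seen. Of the regulators the highest model in a seed coat was a match of the WRKY factor TTG2, Glyma.19G177400.1, at 40.3 RPKM in W55 and 58.4 RPKM in Williams, or 1.45-fold lower (1.37 to 1.53).

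Across the list of regulators and partners (52 models, the TT8 matches included), 23 reached 1 RPKM in either coat. None of them passed 4-fold in either direction, 2 (both MYB4 matches) were at least 2-fold lower beside 3.34% of all models, and the median log2 difference was −0.27 beside 0.03. Of the list on transport and the vacuole (24 models with the TT12 match, 16 at 1 RPKM), none passed 4-fold or 2-fold, and the median was −0.19. Its highest model was Glyma.16G158400.1, a match of the laccase-like TT10, which in Arabidopsis oxidizes seed coat flavonoids, at 163 RPKM in W55 against 231 RPKM in Williams (1.42-fold lower, 1.37 to 1.46). The ABC transporter match Glyma.13G220000.1 (ABCC2) was 17.1 against 18.0 RPKM, and the AHA10 match Glyma.03G262600.1 was 10.1 against 12.7 RPKM (1.26-fold lower, 1.14 to 1.39).

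The enzyme list held the only pathway models past 4-fold. Of its 75 models, 41 reached 1 RPKM, 2 were past 4-fold higher in W55 and none past 4-fold lower, with a median of −0.09. Over all models 0.227% were past 4-fold higher and 0.461% past 4-fold lower. At 2-fold 3 were higher and 9 lower, beside 2.83% and 3.34% of all models. All 9 were the CHS models of chromosome 8, at 2.18-fold to 3.23-fold lower in W55. The paper reports that the deletion in W55 left only a hybrid CHS gene of this cluster. Reads of similar CHS copies can count at these models, and their share was not tested. The model higher at 2-fold but not at 4-fold was a further CHS match, Glyma.05G153100.1, at 2.20 against 0.547 RPKM (ratio 4.02, 1.64 to 11.8). It was picked after its value had been seen and is below 4-fold only through the added 0.1 RPKM. The pair past 4-fold were CHS7 (Glyma.01G228700.1), with 308 against 47.1 RPKM or 6.55-fold (6.19 to 6.93), and CHS8 (Glyma.11G011500.1), with 223 against 31.2 RPKM or 7.15-fold (6.71 to 7.62). Both encode chalcone synthase, the first enzyme of the flavonoid pathway. The 3 highest enzyme models differed less, with both LDOX matches at 529 against 561 RPKM (Glyma.11G027700.1) and 493 against 500 RPKM (Glyma.01G214200.1), and the flavanone 3-hydroxylase match Glyma.02G048400.1 at 411 against 487 RPKM. The highest DFR match, Glyma.14G072700.1, was 137 against 237 RPKM, or 1.73-fold lower (1.66 to 1.79), and the highest BAN match, Glyma.08G062000.1, was 122 against 103 RPKM (ratio 1.18, 1.13 to 1.24).

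**Figure D3:**
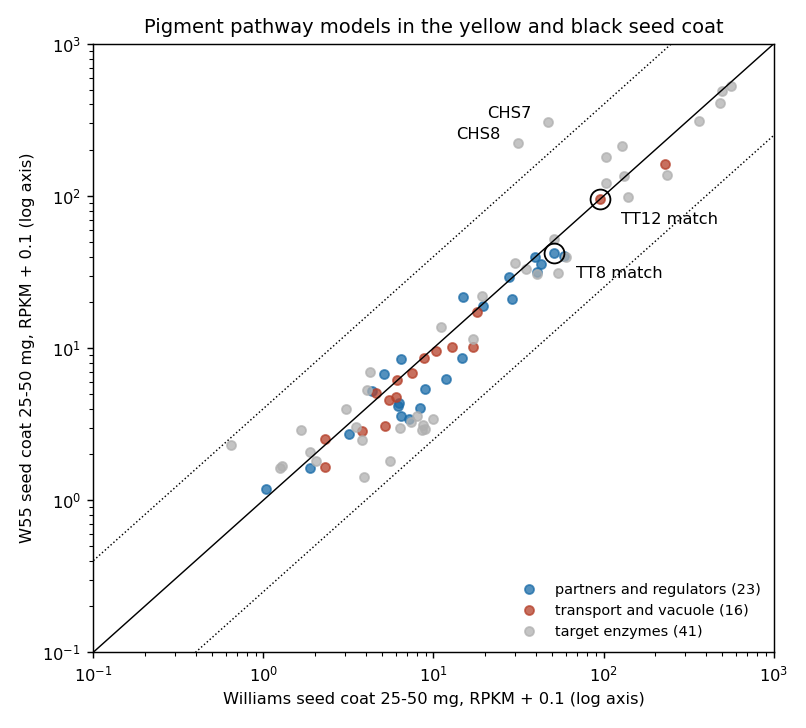
RPKM + 0.1 (log axes) of the pathway models with at least 1 RPKM in the W55 or Williams 25–50 mg seed coat, 1 point per model, in the 3 lists (23 regulators, 16 transport and vacuole models, 41 enzymes). The solid line marks equality and the dotted lines 4-fold. The TT8 match (51.2 and 42.4 RPKM) and the TT12 match (94.7 and 95.5 RPKM) are circled near equality, and the points beyond 4-fold are CHS7 and CHS8.

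From 5–6 mg to 25–50 mg in Williams, both members were higher at the later stage as RPKM, but against other models only the TT8 match was. The TT8 match was 5.86-fold higher (5.59 to 6.15) and the TT12 match 1.82-fold higher (1.75 to 1.89), which are log2 differences of 2.54 and 0.86. The median over all models was itself 1.62 higher, and 34.8% of 30487 models were at least 4-fold higher (1.22% at least 4-fold lower). Relative to that median the TT8 match was 0.92 higher and the TT12 match 0.76 lower (−0.76). With TPM scaling the log2 differences were larger, 3.79 and 2.12. With the chromosome 13 models left out they were 1.85 and 0.17. With scaling by the median ratio of models above 1 RPKM in every library they were 1.22 and −0.46. The direction of the TT12 match thus turned with the scaling.

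The ratio of the members to each other within a library is free of this. The TT12 match stood 5.95-fold above the TT8 match at 5–6 mg (5.76 to 6.16), 1.85-fold at 25–50 mg (1.76 to 1.94) and 2.25-fold in W55 (2.15 to 2.37). The TT12 match thus had its larger excess in the youngest coat. The BAN match Glyma.08G062000.1 also had its larger share early, with 465 RPKM at 5–6 mg and 103 RPKM at 25–50 mg. The TT2 match went from 10.6 to 39.4 RPKM, the AHA10 match from 7.36 to 12.7 RPKM and the TT10 match from 8.97 to 231 RPKM. Beside the 34.8% of all models, 9 of the 23 regulators at 1 RPKM were at least 4-fold higher at 25–50 mg and 1 was lower (median 1.89), 8 of the 16 transport models were higher and none lower (median 1.97), and 5 of the 41 enzymes were higher and 2 lower (median 0.77). The median over all models was 1.62.

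At the 200–300 mg stage, when the seed turns yellow and dries, both members had dropped to very different depths. The TT8 match was 14.7-fold lower than at 25–50 mg (13.8 to 15.8) and still had 1104 hits. The TT12 match went from 3377 hits to none in a library with 113 M alignments. It was 6389-fold lower when the desiccating library is set at 3 hits (0.0148 RPKM), and the lower 95% limit was 5193-fold. The log2 differences were −3.84 and −9.89 beside a median of −0.26 over all models, and 19.9% of 32846 models were at least 4-fold lower (9.02% higher). Glyma.02G147800.1 was 42.3-fold lower (37.6 to 47.8), more than its chromosome 10 counterpart. The 25–50 mg coats were sequenced with shorter reads on an older instrument than the other seed coats, so stage and sequencing cannot be told apart in this step or in the one before it.

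Few models this abundant at 25–50 mg had no hit at 200–300 mg. Of the 881 models with at least 50 RPKM in the Williams 25–50 mg coat, 30 (3.41%), the TT12 match included, had none. These limits were set after the values had been seen. In the pathway lists 17 models were that high, and 3 of them had no hit: the TT12 match, the BAN match Glyma.08G062000.1 (103 RPKM before) and a DFR match, Glyma.17G252300.1 (53.6 RPKM before). Some other matches of these enzymes were still detected at 200–300 mg. The DFR match Glyma.02G158700.1 was 3.28-fold higher there (3.01 to 3.57), at 62.9 against 19.2 RPKM. Of further DFR matches, Glyma.17G252200.1 was 3.09-fold lower (2.91 to 3.28) and Glyma.14G072700.1 was 42.3-fold lower (39.4 to 45.5). The BAN match Glyma.03G256600.1 had 4.33 against 2.96 RPKM, whereas the BAN match Glyma.08G062100.1 had no hit (0.535 RPKM before). Of the 30 models, 14 have neither a Pfam domain nor an Arabidopsis match.

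The partners divided in the same step. The TT2 match stood at 0.0302 RPKM, 1304-fold below its 25–50 mg level (508 to 4796), and the AHA10 match to 0.0812 RPKM, 156-fold lower. The TTG1 match Glyma.06G136900.1 was only 4.42-fold lower at 3.35 RPKM (3.93 to 4.96) and stood at 4.33 RPKM in the dry coat. The LDOX match Glyma.01G214200.1 had 93.5 RPKM and the TTG2 match Glyma.19G177400.1 had 20.6 RPKM. The MYB5 matches, MYB factors of the Arabidopsis seed coat, also differed among themselves, with Glyma.14G154400.1 at 2.03 RPKM (28.9 RPKM before) and Glyma.17G143600.1 without a hit (6.31 RPKM before). By list, 15 of 26 regulators were at least 4-fold lower and 4 higher (median −3.38), 5 of 16 transport models were lower and none higher (median −1.09), and 18 of 44 enzymes were lower and 5 higher (median −1.42). Over all models 19.9% were at least 4-fold lower and 9.02% higher, with a median of −0.26.

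**Figure D4:**
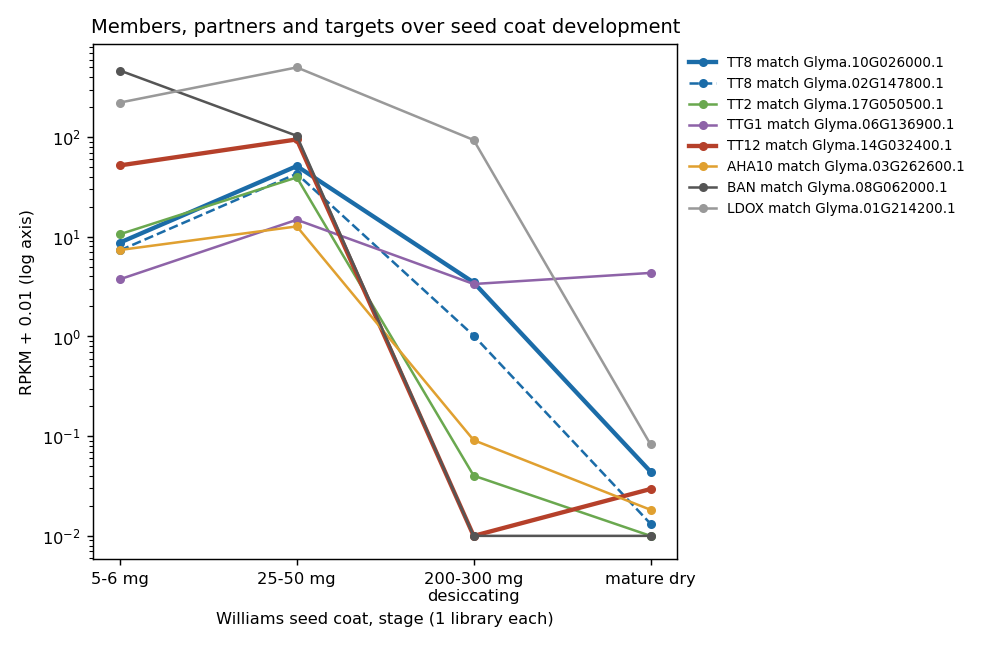
RPKM + 0.01 (log axis) of both members, the second TT8 match and 5 partner and target models over the 4 stages of the Williams seed coat, 1 library per stage. The TT12 and BAN matches reach the bottom of the axis (no hit) at 200–300 mg, the TT8 matches are still at 3.47 and 1.01 RPKM, and the TTG1 match stays between 3.35 and 14.8 RPKM at the 3 later stages.

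In the dry seed coat the TT8 match was lower again, by 102-fold (56.7 to 205) against the 200–300 mg coat, with 11 hits against 1104. The log2 difference was −4.74 beside a median of −0.97, and 26.5% of 26156 models were at least 4-fold lower (1.15% higher). The TT12 match had 4 hits against none, which counting error does not separate. Of the models at 1 RPKM, 13 of 17 regulators, 4 of 12 transport models and 34 of 37 enzymes were at least 4-fold lower and none was higher. The unannotated chromosome 13 models held 47.6% of the dry coat and 7.86% of the 200–300 mg coat. With TPM the TT8 difference was −5.93, and with these models also left out it was −5.63. The level on that last scale was 0.112 in the dry coat against 10.4 at 200–300 mg, beside 0.0341 against 3.47 RPKM as deposited. The added 0.1 weighs less on these larger values, which makes the log2 difference larger than −4.74.

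Seed coats and cotyledons of the same seed stage were sequenced with the same read length and instrument, but not always to the same depth. At 200–300 mg the coat had 113 M alignments and the cotyledon 38.8 M. The pairs show how far the transcripts were restricted within a seed. At 5–6 mg the TT8 match was 66.4-fold higher in the coat (52.2 to 85.6) and the TT12 match 1141-fold (691 to 2038), beside 7.47% of 25754 models at least 4-fold higher in the coat (16.9% lower) and a median of −1.01 over all models. On the log2 scale these differences were 5.25 and 8.48 as deposited. They were 5.09 and 8.50 with TPM, and 6.27 and 9.95 with the chromosome 13 models also left out. Of the models at 1 RPKM, 18 of 22 regulators, 4 of 14 transport models and 22 of 39 enzymes were at least 4-fold higher in the coat. The TT12 match was thus among a minority of its list. At 200–300 mg the TT8 match was at least 127-fold higher in the coat with the cotyledon set at 3 hits, beside 19.6% of 27303 models (3.52% lower), and the TT12 match had no hit in either. In dry seed neither member could be told apart between the organs, the TT8 match with 11 and 10 hits and the TT12 match with 4 and 0, and 4.53% of 21341 models were at least 4-fold higher in the coat (9.65% lower).

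The models most like each member were found by Pearson correlation of log2(RPKM + 0.1) over the 12 libraries, among 41059 models, as a description with no test. For the TT8 match they were Glyma.06G027200.1, a match of the MADS-box factor AP3 (r = 0.992), Glyma.03G031600.1, Glyma.20G160800.1 and Glyma.10G233600.1, which have no annotation (r = 0.990 each), and Glyma.02G287700.1, a match of the MADS-box factor SHP2 (r = 0.989). Glyma.02G287700.1 had 6.69, 24.9 and 3.49 RPKM in the Williams coats up to 200–300 mg and 32.3 RPKM in W55, so it was above its Williams level there where the TT8 match was below. Glyma.02G147800.1 was in place 14 (r = 0.984).

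For the TT12 match they were Glyma.09G275500.1, a match of the lipid transfer protein LTP3 (r = 0.999), Glyma.07G263000.1, a peroxidase (r = 0.999), Glyma.09G076600.1, a pectinesterase (r = 0.998), Glyma.13G109100.1, a match of the flavonol regulator MYB12 (r = 0.998), and Glyma.14G055600.1, with no annotation (r = 0.997). All 5 had at most 0.0385 RPKM in the 200–300 mg coat and at most 0.0227 RPKM in any other organ. Glyma.13G109100.1 had 11.1 RPKM at 5–6 mg, 27.8 RPKM at 25–50 mg and 0.00820 RPKM at 200–300 mg, with 29.2 RPKM in W55. The members themselves were less alike (r = 0.905), with the TT12 match in place 446 for the TT8 match and the TT8 match in place 366 for the TT12 match. All these correlations share the same 12 libraries. The models listed for the TT8 match were still detected in the 200–300 mg coat, at 0.443 to 12.3 RPKM, and the AP3 match was low throughout, with 1.11 to 2.06 RPKM in the 3 young coats.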

How the data were processed

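Total RNA of 12 soybean samples was sequenced, 1 library per condition. The authors aligned reads with Bowtie 1 (release not given in the sources used here) to the transcripts of all Glyma models of Wm82.a2, with as many as 25 alignments kept for a read and 3 mismatches tolerated. The deposited RPKM values are those of 56044 models, each the first splice variant of its gene. Reads of similar copies can therefore count at more than 1 model, and reads of other splice variants are not in the table. Names come from the deposited annotation. Strand was not kept.

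Hits were recovered with the lengths of 48 models in the study's supplement, as the library totals that make hits whole (tolerance 0.001). Other model lengths were the shortest that make hits whole in every library, which equalled the listed length for 47 of the 48. Totals of 14.7 M to 187 M alignments set the precision, and the approach was tested on simulated data. Ratios have Clopper-Pearson 95% intervals, and a library without a hit was set at 3 hits. Log2 differences used RPKM + 0.1, and models were counted at 4-fold where either library had 1 RPKM or more. No p-value was computed, since no condition has replicates. As an alternative, chromosome 13 models without annotation were left out of the sum used for TPM. Other settings were TPM and median ratio scaling, pseudocounts of 0.01 and 1 RPKM, other minimums and fold limits. The 0.1 added before log2 was the same for every scaling.

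The members and gene lists were chosen with earlier results of these data known. Named models are the members, other matches of TT8 and TT12, the 3 highest models of each list in a seed coat, list models past 4-fold in W55, the 5 models most like each member, and others that the text says were named later. No coordinates or sequences of the models are printed, since no annotation with Glyma identifiers was used here. Tools were numpy 2.4.6, pandas 2.3.3, scipy 1.17.1 and matplotlib 3.10.9.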

Additional observations from a re-analysis of the deposited data

How the results depend on the processing

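No paired analysis was possible because each condition is 1 library and no test was run. Pseudocounts and scalings left the sign of every difference as it was, except that TPM scaling gave −0.16 in place of 0.03 for the TT8 match between dry seed coat and cotyledon, and that the TT12 match turned with TPM, median ratio and chromosome 13 scaling in W55 over Williams (0.01 as deposited) and with the median ratio in 25–50 over 5–6 mg. Log2 differences that moved beyond counting error are given here. TPM and chromosome 13 scaling raised all values while the added 0.1 stayed fixed. The TT12 match in the Williams 25–50 mg coat, for example, went from 94.7 to 272 and 290. A difference with no hit on 1 side therefore grows with the scale alone. Other causes of these shifts were not tested. For W55 over Williams, leaving out the chromosome 13 models gave −0.42 (TT8 match) and −0.13 (TT12 match), and TPM scaling gave −0.08 for the TT12 match. For 25–50 over 5–6 mg the TT8 match had 2.42 with a pseudocount of 1 RPKM, 3.79 with TPM, 1.22 with the median ratio and 1.85 without chromosome 13 models. The TT12 match had 2.12 with TPM, −0.46 with the median ratio and 0.17 without chromosome 13 models. For 200–300 over 25–50 mg the TT8 match had −3.55 with 1 RPKM, and the TT12 match had −13.21 with 0.01 RPKM, −6.58 with 1 RPKM, −11.41 with TPM and −11.50 without chromosome 13 models. For dry over 200–300 mg the TT8 match had −6.30 with 0.01 RPKM, −2.11 with 1 RPKM, −5.93 with TPM, −4.34 with the median ratio and −5.63 without chromosome 13 models, and the TT12 match had 1.56 with 0.01 RPKM and 0.71 without chromosome 13 models. For seed coat over cotyledon at 5–6 mg the TT8 match had 5.95, 3.11, 6.25 and 6.27 with 0.01 RPKM, 1 RPKM, the median ratio and no chromosome 13 models, and the TT12 match had 9.87, 5.66, 9.53 and 9.95. At 200–300 mg the TT8 match had 8.44 with 0.01 RPKM, 2.16 with 1 RPKM, 6.60 with TPM and 6.71 without chromosome 13 models. In dry seed the TT12 match had 1.56 with 0.01 RPKM and 0.71 without chromosome 13 models. The 71 models higher in W55 became 273 without a minimum, 15 with a minimum of 5 RPKM, 6 with a pseudocount of 1 RPKM and 884 at 2-fold, and the 144 lower models became 348, 47, 29 and 1045. Of the 5 models most like the TT8 match 3 remained with a pseudocount of 1 RPKM and 0 with Spearman correlation, and 0 remained for the TT12 match with Spearman correlation. Values under 3 hits, 0.00568 to 0.114 RPKM for the members, are below what these depths resolve.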

Other observations

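Some models outside the pathway lists shared the loss of the TT12 match at 200–300 mg. Among the 30 models with at least 50 RPKM in the Williams 25–50 mg seed coat and no hit in the 200–300 mg coat, 2 were matches of O-methyltransferase 1, Glyma.20G176100.1 at 267 RPKM and Glyma.10G215700.1 at 93.8 RPKM before the loss. Glyma.03G035800.1, a match of the cell wall loosening protein expansin A2, had 119 RPKM before it, and Glyma.04G005400.1, a match of the proline-rich protein PRP2, had 90.6 RPKM. These models were picked after their values had been seen and carry no test.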
